A study of Mus musculus with 6 samples.

Results

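Interferon response genes are the genes that a cell switches on after an interferon binds its receptor. The 46 genes described here were chosen by name, with earlier results of these data known. Their shares beside those of all genes are therefore descriptive. The 46 were found by their Ensembl identifiers among the 22274 genes listed for ileal epithelium. From textbook knowledge, 33 of them are mainly targets of type I or type III interferon and 13 are mainly targets of interferon gamma. All 46 had enough counts to be tested between Ogt knockout and control libraries. Many interferon response genes answer more than one interferon, so the split into classes is one of emphasis.

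The libraries came from epithelial cells isolated from mouse ileum, with 3 in each group. Knockout mice carried floxed Ogt together with Olfm4-CreER, a tamoxifen-activated recombinase driven from Olfm4, a gene of crypt stem cells. Control mice are labelled LoxP and no driver is named for them, so what the driver or the recombinase does cannot be told apart here from what the loss of Ogt does. The offspring of the cross were given tamoxifen on 3 days in a row at 2 months of age. Whether the controls received it is not stated for them, so a part of tamoxifen in the differences cannot be told apart. Tissue was taken on day 10, when the submitters describe the knockout ileal epithelium as free of Ogt. Ogt encodes O-GlcNAc transferase, which adds a sugar to proteins of the nucleus and cytoplasm. Sex and strain are not in the labels, nor do they say that each library was a separate animal, so the p-values reflect a spread between libraries that may be technical.

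Interferons are secreted proteins that alert cells to infection. Type I and type III interferons act through a factor called ISGF3, which contains STAT2 and IRF9 and binds interferon-stimulated response elements in DNA. Interferon gamma acts through gamma activated sites in DNA and induces IRF1. In the intestine, epithelial cells are known to respond strongly to type III interferon during viral infection, while interferon gamma from lymphocytes induces antigen presentation and GTPases that attack intracellular microbes.

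Libraries held 14389429 to 18076479 estimated counts. Levels are given as normalised CPM, counts scaled to the library size after TMM correction, and 3 counts in a library corresponded to 0.159 to 0.207 CPM. Ogt stood at 140.1, 127.3 and 127.9 CPM in the controls and at 48.5, 43.0 and 36.0 CPM in the knockouts (log2 fold change -1.63 ± 0.13, ± SE here and below, adjusted p = 0.00121). The sequence that was floxed is not given, so transcripts that lack it could still be counted. The source of the remaining Ogt transcripts was not tested. Epithelial markers were abundant in each library, with a summed level of 17933.1 to 22747.1 CPM in controls and 16568.3 to 19921.2 CPM in knockouts, and none of the 10 was called (edgeR; 2 lower at an unadjusted p under 0.05, and 1 lower with DESeq2). T cell, B cell, myeloid and stromal transcripts were present as well, and their levels are given below beside the results they touch. In such bulk RNA, fewer cells of a type and less RNA per cell cannot be told apart.

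Of the 46 interferon response genes, 12 fell and 0 rose in Ogt knockout (edgeR quasi-likelihood test, with p-values adjusted by Benjamini-Hochberg over all genes, at a threshold of 0.05). Over all 14005 tested genes, 9.37% were lower and 9.33% were higher by the same rule, 18.7% in either direction, and 26.1% of the interferon response genes were lower. Scaling by library totals alone turned the all-gene shares to 6.13% lower and 14.6% higher and left 12 of the 46 lower, the same genes. At an unadjusted p under 0.05, 17 were lower and 2 were higher, the latter being Zbp1 and Rsad2. DESeq2 called 16 lower and limma voom 14, with 0 higher in each. Every knockout library lay below every control library for 17 of the 46, or 37.0%, against 20.2% of all tested genes, and none lay wholly above, against 19.6%. The median log2 fold change of the 46 was -0.35, compared with -0.05 over all tested genes, and 35 were negative. Leaving out knockout 2 or knockout 3 left 7 of the 46 lower, when 3.75% and 3.25% of all genes were lower. The 7 were the same in both fits, namely Irf9, Mx1, Parp12, Parp14, Ifi27, Irf1 and Irgm1, and these 7 also remained lower in each of the 17 alternative fits. Only 4 of the 12 genes that fell, Mx1, Dtx3l, Oas1a and Parp14, changed by at least 2-fold.

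By class, 10 of the 33 type I or III targets (30.3%) and 2 of the 13 interferon gamma targets (15.4%) fell, against 9.37% of all tested genes. Both classes had a median log2 fold change of -0.35, with a range of -2.63 to 0.69 for type I or III targets and of -0.95 to 0.47 for interferon gamma targets. Whether the classes differed was not tested.

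**Figure D1:**
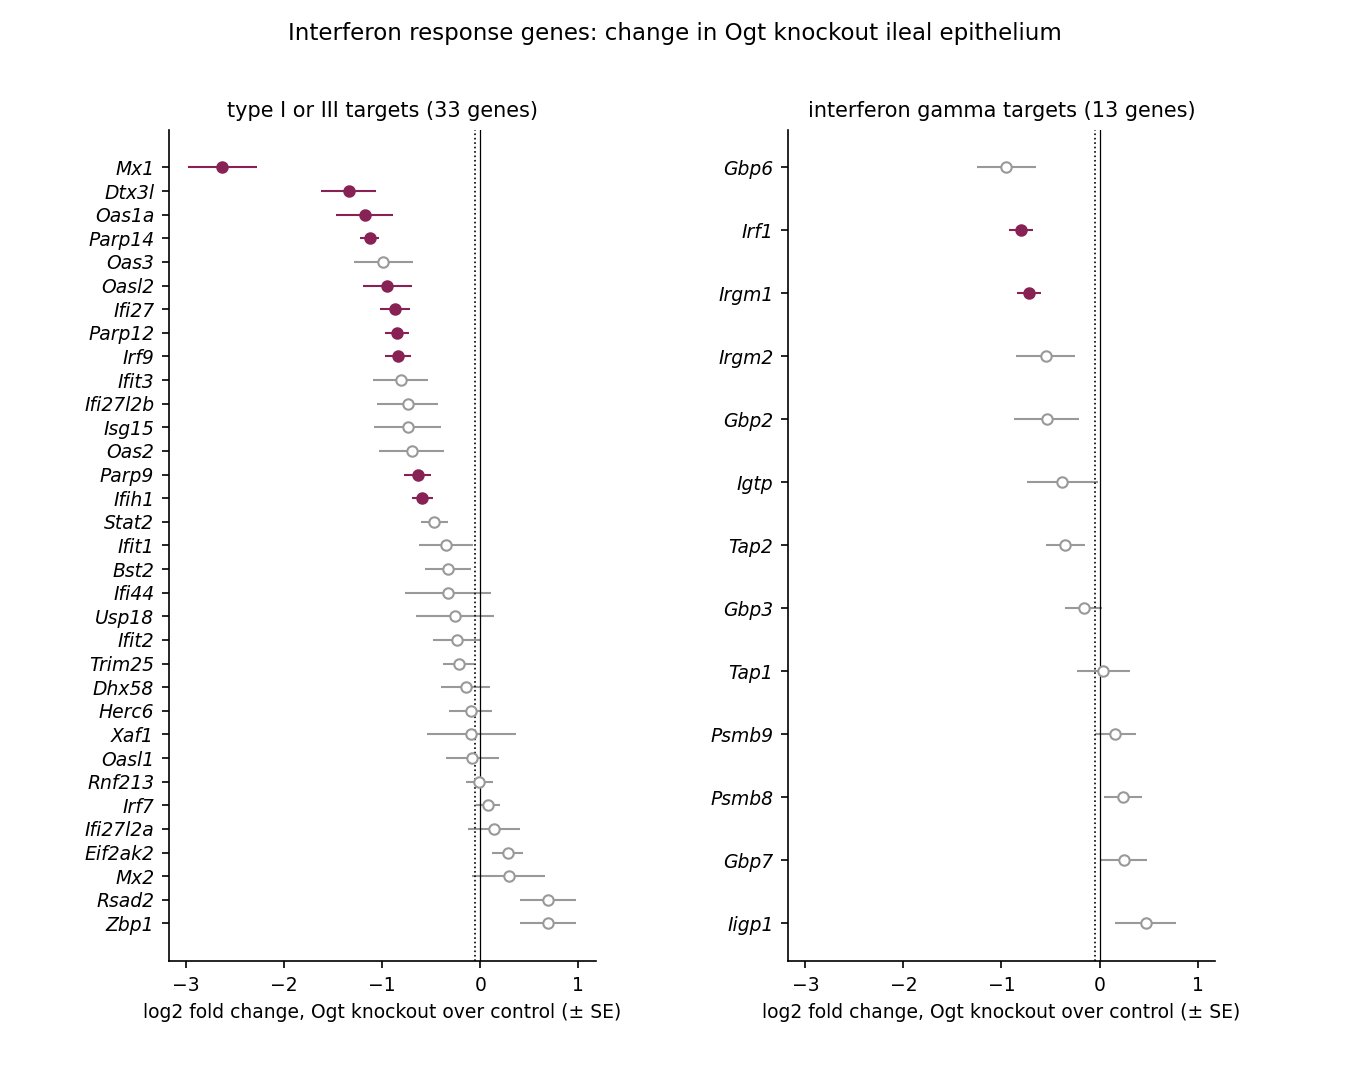
Log2 fold change in Ogt knockout over control for each of the 46 interferon response genes, with type I or III targets on the left and interferon gamma targets on the right. Bars are ± SE, filled points passed the test, the solid line is no change and the dotted line is the all-gene median of -0.05; the 12 filled points are all to the left, from Mx1 at -2.63 to Ifih1 at -0.59.

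Promoters were searched for the short sequences that the interferon factors bind, because the genes were grouped by the factor that induces them. RefSeq promoter windows (GRCm38.p6, 250 bases before to 50 after the start) matched 32 of the 46 genes. This build is older than the one of the expression table, and the windows were used for their sequence. The core of the interferon-stimulated response element was searched as GAAA-NN-GAAA on both strands, N being any base, and the gamma activated site as TTCNNNGAA, which reads the same on both strands. The response element core was in a window of 16 of the 32 genes, or 50%, compared with 4.04% of all tested genes that had a window. The gamma activated site was in 9 of the 32, or 28.12%, compared with 8.27%. By class, the response element core was in 10 of 22 type I or III targets (45.45%) and 6 of 10 interferon gamma targets (60%), and the gamma activated site in 4 (18.18%) and 5 (50%). A match is a run of letters and does not show that a factor binds there.

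Runs from 6 of these promoters are shown 5′ to 3′ on the strand of the gene, with matches in capitals, because they set genes that fell beside genes that did not pass the test. Overlapping matches are joined. Oas1a, Irgm1 and Irf1 fell, and Isg15, Ifit1 and Rsad2 did not pass the test. The lines give the position in GRCm38.p6 and the strand.
Oas1a, chr5:120907526-120907560, minus strand, response element core: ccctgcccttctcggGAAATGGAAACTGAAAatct
Irgm1, chr11:48871421-48871465, minus strand, response element core: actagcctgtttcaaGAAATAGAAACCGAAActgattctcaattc
Irf1, chr11:53769909-53769947, plus strand, gamma activated site: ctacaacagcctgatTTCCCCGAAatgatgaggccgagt
Isg15, chr4:156200860-156200911, minus strand, response element core: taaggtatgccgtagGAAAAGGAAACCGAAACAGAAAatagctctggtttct
Ifit1, chr19:34640770-34640828, plus strand, response element core: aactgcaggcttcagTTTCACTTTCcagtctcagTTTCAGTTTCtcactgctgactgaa
Rsad2, chr12:26456548-26456587, minus strand, response element core: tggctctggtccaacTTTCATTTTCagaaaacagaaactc

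In Oas1a the matches ran from 20 to 5 bases before the start, in Irgm1 from 30 to 15, and in Irf1 from 90 to 82. In Isg15 they ran from 78 to 57 bases before the start, where 3 overlapping cores were joined. Ifit1 and Rsad2 carried the core on the opposite strand, as TTTC runs. Among genes that fell and had a window, 3 of 8 held the response element core (Oas1a, Irgm1 and Ifih1), against 13 of the 24 that did not pass the test.

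Among the transcription factors of the type I or III class, Irf9 fell, while Stat2 and Irf7 did not pass the test. Irf9 encodes the DNA-binding subunit of ISGF3. It stood at 41.2, 44.7 and 52.0 CPM in controls 1 to 3 and at 28.5, 25.5 and 23.3 CPM in knockouts 1 to 3. The groups were well apart, with the highest knockout at 28.5 CPM and the lowest control at 41.2 CPM (-0.84 ± 0.13, adjusted p = 0.00589). Stat2, its partner in ISGF3, stood at 38.0, 50 and 48.7 CPM in controls and at 35.5, 34.1 and 29.1 CPM in knockouts. Its groups did not overlap, yet it missed the threshold (-0.47 ± 0.14, adjusted p = 0.0512), and it passed it as lower without control 1 (adjusted p = 0.0147), with DESeq2 (0.0354), with upper quartile factors (0.0432) and with a minimum of 1 CPM in 3 libraries (0.0484). Stat2 overlaps Apof in the annotation, and the library kit does not mark strand, so reads of the overlap cannot be assigned. Irf7, the factor that amplifies type I interferon production, was at 158.1 ± 7.36 CPM in controls and 167.1 ± 22.0 CPM in knockouts (mean ± SD, n = 3 per group here and below), and its groups overlapped (0.08 ± 0.12).

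Of the 4 genes for sensing foreign nucleic acid and its regulation, Ifih1 fell. It encodes MDA5, which detects long double-stranded RNA in the cytoplasm. Its level was 121.4, 127.2 and 133.0 CPM in controls and 96.0, 81.6 and 76.7 CPM in knockouts (-0.59 ± 0.11, adjusted p = 0.0124). All knockouts were below all controls, knockout 1 being nearest to them. The call was lost without knockout 2 or without knockout 3 (adjusted p up to 0.0578). Zbp1, a sensor of Z-form nucleic acid that can trigger cell death, had the opposite sign. It stood at 27.6, 46.2 and 25.0 CPM in controls and 67.3, 37.6 and 54.5 CPM in knockouts, and the groups overlapped because control 2 was above knockout 2 (0.69 ± 0.29, adjusted p = 0.146). Without control 2 it was called higher (1.04, adjusted p = 0.039). Dhx58, which encodes LGP2, a regulator of MDA5, and Trim25, a ubiquitin ligase that activates RIG-I, did not pass the test (-0.15 ± 0.25 and -0.22 ± 0.16).

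None of the 3 ISG15 system genes among the 46 passed the test (edgeR, with 0 at an unadjusted p under 0.05, and 0 with DESeq2 or limma voom). All 3 had negative log2 fold changes, although Herc6 was at 0.03 with libraries scaled by their totals alone. Outside the 46, Uba7, which encodes the activating enzyme for ISG15, fell (-0.91 ± 0.15, adjusted p = 0.00716) and is described below. Isg15, a ubiquitin-like modifier, was at 7.49, 10.6 and 10.9 CPM in controls and at 9.05, 4.50 and 3.86 CPM in knockouts (-0.74 ± 0.34, adjusted p = 0.164). Knockout 1 was above control 1, while the other two knockouts were below each control. Without knockout 1, Isg15 was called lower (-1.21, adjusted p = 0.0277). Usp18, the protease that removes ISG15 and restrains receptor signalling, and Herc6, the mouse ISG15 ligase, stood at -0.26 ± 0.40 and -0.10 ± 0.22.

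Antiviral effectors made up the largest role group, with 3 of 14 genes lower (21.4%, against 9.37% of all tested genes) and 0 higher (against 9.33%). Mx1 encodes a GTPase that blocks influenza and related viruses, and many laboratory mouse strains are known to carry a defective allele. Mx1 was low in all libraries, with 5.05, 4.91 and 4.24 CPM in controls and 1.18, 0.611 and 0.529 CPM in knockouts. This was the largest change among the 46 genes, to 16.1% of the control level (-2.63 ± 0.35, adjusted p = 0.00354), and rested on 236 counts over the controls and 38 over the knockouts. Mx2, its relative, was at 1.52 ± 0.320 and 1.87 ± 0.627 CPM and did not pass the test (0.29 ± 0.37).

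Oligoadenylate synthetases sense double-stranded RNA and activate RNase L. Oas1a fell from 46.2, 45.9 and 53.1 CPM in controls to 32.6, 16.7 and 15.1 CPM in knockouts (-1.18 ± 0.29, adjusted p = 0.0303). Oasl2, a related protein, fell from 69.0, 78.7 and 81.7 CPM to 57.6, 28.8 and 32.7 CPM (-0.95 ± 0.25, adjusted p = 0.0418). In both genes knockout 1 lay between the controls and the other two knockouts. Their calls were lost without knockout 2, without knockout 3 and without each of the controls (adjusted p up to 0.0985 for Oas1a and 0.135 for Oasl2). The counts of Oas1a were not whole in any of the 6 libraries, which happens when reads are shared out between similar genes, so its level is uncertain with respect to its close copies.

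Oas3 was the largest change that missed the threshold, with 44.9, 55.7 and 80.6 CPM in controls and 41.2, 29.9 and 20.4 CPM in knockouts (-0.99 ± 0.30, adjusted p = 0.0627). All knockouts were below all controls, knockout 1 by a small margin. Oas3 passed the threshold as lower with DESeq2 (adjusted p = 0.00621), with limma voom (0.047), with a minimum of 1 CPM in 3 libraries (0.0464) and without knockout 1 (-1.27, adjusted p = 0.0423). Oas2 was at 2.92 ± 0.118 CPM in controls and 1.81 ± 0.708 CPM in knockouts (-0.70 ± 0.33), and Oasl1 was at 97.1 ± 22.7 and 92.0 ± 31.8 CPM (-0.08 ± 0.27). Of the 5 family members among the 46, then, Oas1a and Oasl2 passed the test. Outside the 46, Oas1g, the gene next to Oas1a, fell (-1.08 ± 0.27, adjusted p = 0.0318), and Oas1b and Oas1c did not pass. The Oas1g call was lost without the same libraries as that of Oas1a (adjusted p up to 0.12), and its counts were not whole in any library.

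The IFIT genes among the 46, whose proteins bind viral RNA, had no member that passed the test. Ifit3 came nearest, with 11.1, 10.2 and 12.9 CPM in controls and 9.61, 5.0 and 5.03 CPM in knockouts (-0.81 ± 0.28, adjusted p = 0.0793). Ifit3 was called lower without knockout 1 (-1.19, adjusted p = 0.0152), with DESeq2 (0.0423), with limma voom (0.0486) and with the replicate block (0.0496), and its counts were not whole in any library. Ifit1 and Ifit2 stood at -0.35 ± 0.28 and -0.24 ± 0.24. Rsad2, which encodes viperin, had 8.34, 15.2 and 18.9 CPM in controls and 27.6, 18.6 and 22.4 CPM in knockouts (0.69 ± 0.29, adjusted p = 0.144). Its groups overlapped only in control 3 and knockout 2. The kinase gene Eif2ak2 (PKR), the tether gene Bst2 and the large ligase gene Rnf213 did not pass the test, at 0.28 ± 0.16, -0.33 ± 0.23 and -0.01 ± 0.14.

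All 4 genes of the PARP family and its partner among the 46 fell, against 9.37% of all tested genes. This was the one role group of more than 1 gene with every member called. Outside the 46, Parp11 fell and is described below, and Parp10 did not pass the test (-0.29 ± 0.18, adjusted p = 0.289). Parp14, an ADP-ribosyltransferase, stood at 159.0, 185.3 and 174.8 CPM in controls and at 80.2, 79.8 and 76.5 CPM in knockouts. The knockouts were close together, (-1.13 ± 0.10, adjusted p = 0.00141), and this was the smallest adjusted p among the 46 genes. Parp12, an ADP-ribosyltransferase with antiviral activity, stood at 155.4, 175.5 and 157.4 CPM in controls and at 96.4, 94.9 and 78.8 CPM in knockouts (-0.85 ± 0.12, adjusted p = 0.00385). Its groups were separate as well.

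Parp9 and Dtx3l encode a protein complex in which Dtx3l is the ubiquitin ligase. Parp9 fell from 128.1, 147.2 and 129.8 CPM to 101.1, 72.1 and 86.1 CPM (-0.64 ± 0.14, adjusted p = 0.0177). Dtx3l fell from 109.6, 78.8 and 120.7 CPM to 58.1, 33.7 and 30.4 CPM (-1.34 ± 0.28, adjusted p = 0.0187). In both genes the groups were separate and knockout 1 was the highest knockout. The 2 genes overlap on chromosome 16, their counts were not whole in 4 libraries each, and Parp14 is the next gene beyond Dtx3l. Parp9 and Dtx3l are therefore not independent measurements. Both calls were lost without knockout 2, knockout 3 or control 3, and that of Parp9 also without control 2 (adjusted p up to 0.0711 for Parp9 and 0.0706 for Dtx3l).

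Among the other induced proteins of the class, Ifi27 fell. It encodes a small membrane protein and stood at 30.9, 36.9 and 32.2 CPM in controls and at 21.6, 17.1 and 16.2 CPM in knockouts (-0.87 ± 0.15, adjusted p = 0.00818). Its groups were separate. Its relative Ifi27l2b had the most transcript per length of all 46 genes, with a mean of 202.2 FPKM, the deposited values scaled for transcript length and library size. Ifi27l2b stood at 404.5, 238.5 and 195.5 CPM in controls and at 222.8, 140.9 and 137.6 CPM in knockouts. Control 1 was far above the other libraries and knockout 1 was above control 3, so the groups overlapped (-0.74 ± 0.31, adjusted p = 0.142). Ifi27l2a, which overlaps Ifi27, was at 0.14 ± 0.27, and Ifi44 and Xaf1 were at -0.33 ± 0.44 and -0.09 ± 0.45.

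**Figure D2:**
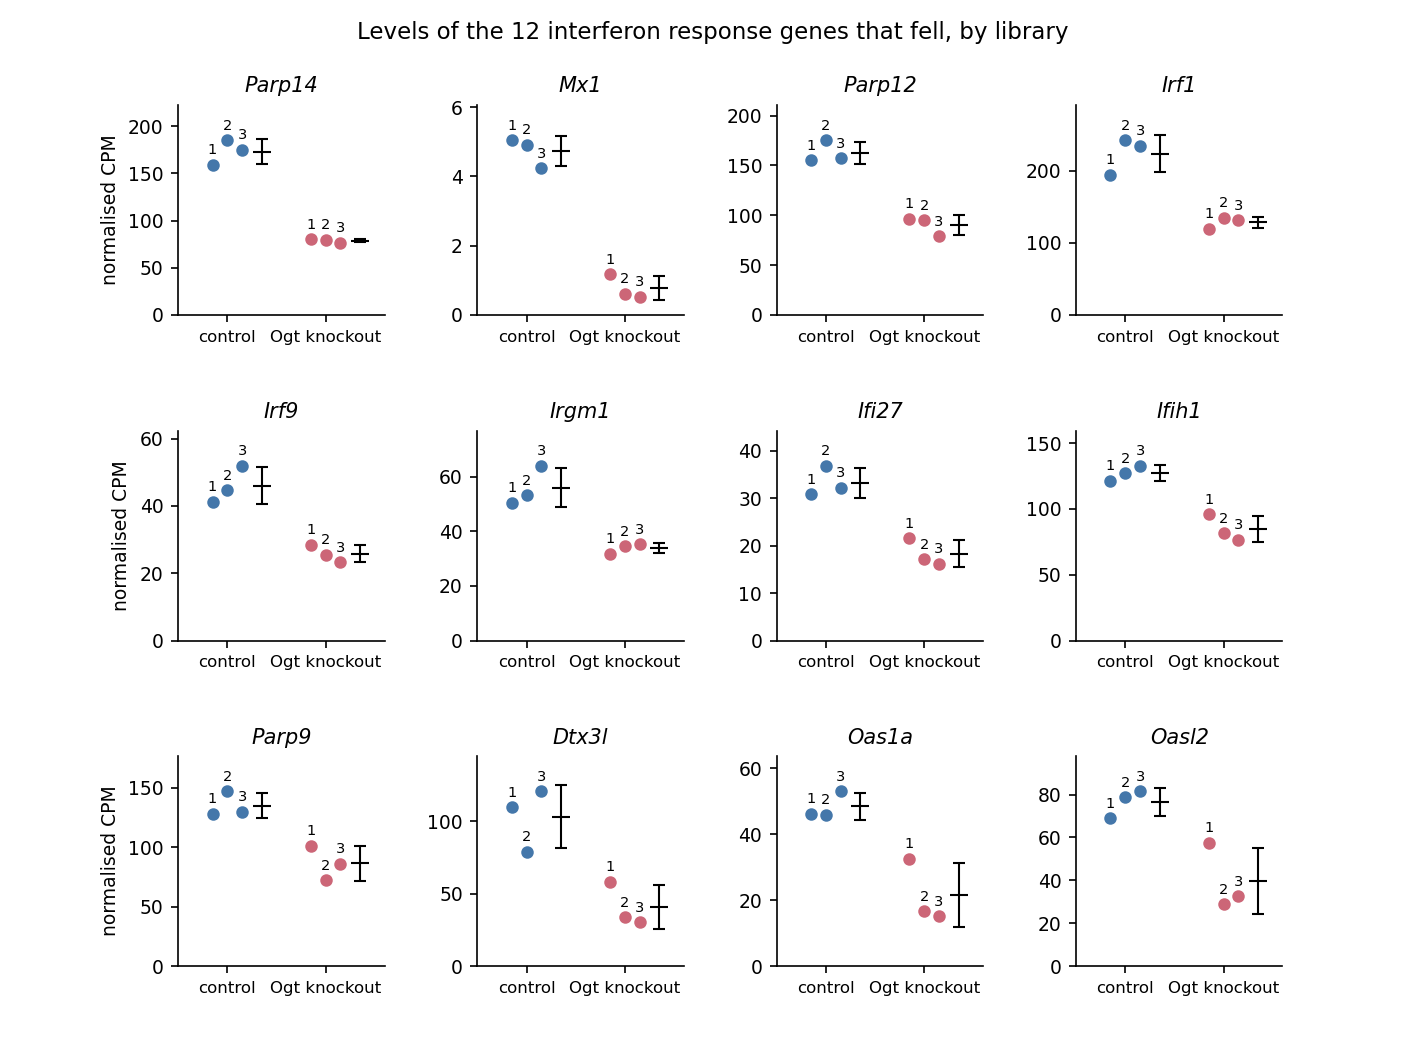
Normalised CPM by library for the 12 interferon response genes that fell, ordered by adjusted p. Points are libraries marked by replicate number and black bars are the mean ± SD (n = 3 per group); in each panel all knockouts are below all controls, and knockout 1 is the highest knockout in all but Irf1 and Irgm1.

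In the interferon gamma class, Irf1 and Irgm1 fell. Irf1 encodes the transcription factor that carries much of the interferon gamma response and was abundant, with a mean of 87.2 FPKM. It stood at 194.2, 242.4 and 234.6 CPM in controls and at 119.4, 134.5 and 131.1 CPM in knockouts (-0.80 ± 0.12, adjusted p = 0.00516). The knockouts were near 57.4% of the control level with little spread. Irgm1, an immunity-related GTPase that regulates autophagy and its sister GTPases, stood at 50.6, 53.2 and 64.2 CPM in controls and at 31.9, 34.6 and 35.4 CPM in knockouts (-0.72 ± 0.12, adjusted p = 0.00713). Its groups were separate too.

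The other immunity-related GTPases among the 46 genes did not pass the test. Irgm2 (-0.55 ± 0.30), Igtp (-0.38 ± 0.36) and Iigp1 (0.47 ± 0.31) had overlapping groups. Igtp and Irgm2 are neighbours on chromosome 11, and their counts were not whole in 3 libraries each.

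None of the 4 guanylate-binding protein genes among the 46 passed the test (edgeR, with 1 lower at an unadjusted p under 0.05, and 1 lower with DESeq2, in each case Gbp6). These genes encode GTPases that break open vacuoles holding microbes. Gbp6 had 23.4, 59.4 and 45.3 CPM in controls and 22.4, 21.9 and 22.2 CPM in knockouts (-0.95 ± 0.30, adjusted p = 0.0726). All knockouts were below all controls, but control 1 was close to the knockouts, and without control 1 Gbp6 was called lower (-1.19, adjusted p = 0.00214). Its counts were not whole in any library. Gbp2, Gbp3 and Gbp7 stood at -0.54 ± 0.33, -0.16 ± 0.19 and 0.25 ± 0.23. Outside the 46, Gbp8 fell (-1.43 ± 0.32, adjusted p = 0.0204), and Gbp2b, Gbp4, Gbp5, Gbp9 and Gbp10 did not pass the test. The Gbp8 call was lost without knockout 1, knockout 3, control 2 or control 3 (adjusted p up to 0.0857).

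Of 4 antigen processing genes, 0 were called (edgeR; 0 at an unadjusted p under 0.05, and 0 with DESeq2 or limma voom). Psmb8, an immunoproteasome subunit and the most abundant gene of the interferon gamma class per length with a mean of 107.2 FPKM, was at 78.6, 130.1 and 97.4 CPM in controls and at 109.3, 109.7 and 141.8 CPM in knockouts. The groups overlapped (0.24 ± 0.19, adjusted p = 0.428). Psmb9, its partner subunit, stood at 0.16 ± 0.21. Tap1 and Tap2, the subunits of the peptide transporter, stood at 0.04 ± 0.27 and -0.35 ± 0.20.

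Libraries of the same group differed from each other, and the 2 classes split them in different ways. Knockout 1 was the highest knockout for 32 of the 33 type I or III targets, the exception being Ifit2, against 38.4% of all tested genes. For the interferon gamma targets it was the lowest knockout in 12 of 13, the exception being Gbp6, against 32.3% of all tested genes. Control 1 was the lowest control for all 13 interferon gamma targets, against 37.8% of all tested genes, and for 17 of the 33 type I or III targets. These counts were noticed in the data, have no test, and treat genes as items that share the same 6 libraries.

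The mean deviation of each class from its control mean, on a log2(CPM + 0.5) scale, shows the size of this. For type I or III targets it was -0.03, -0.04 and 0.06 in controls 1 to 3 and -0.08, -0.67 and -0.63 in knockouts 1 to 3. Knockout 1 was thus close to the controls over the class as a whole. Even so, all knockouts were below all controls for 14 of its 33 genes, or 42.4%, against 20.2% of all tested genes. For interferon gamma targets it was -0.46, 0.28 and 0.18 in controls and -0.49, -0.04 and -0.15 in knockouts, so that control 1 and knockout 1 were alike. Without knockout 1 the median log2 fold change was -0.72 for type I or III targets and -0.14 for interferon gamma targets, and 15 of the 46 genes were lower, against 6.29% of all genes in that fit. Without control 1 the medians were -0.33 and -0.47, and 12 of the 46 were lower, against 9.63%.

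**Figure D3:**
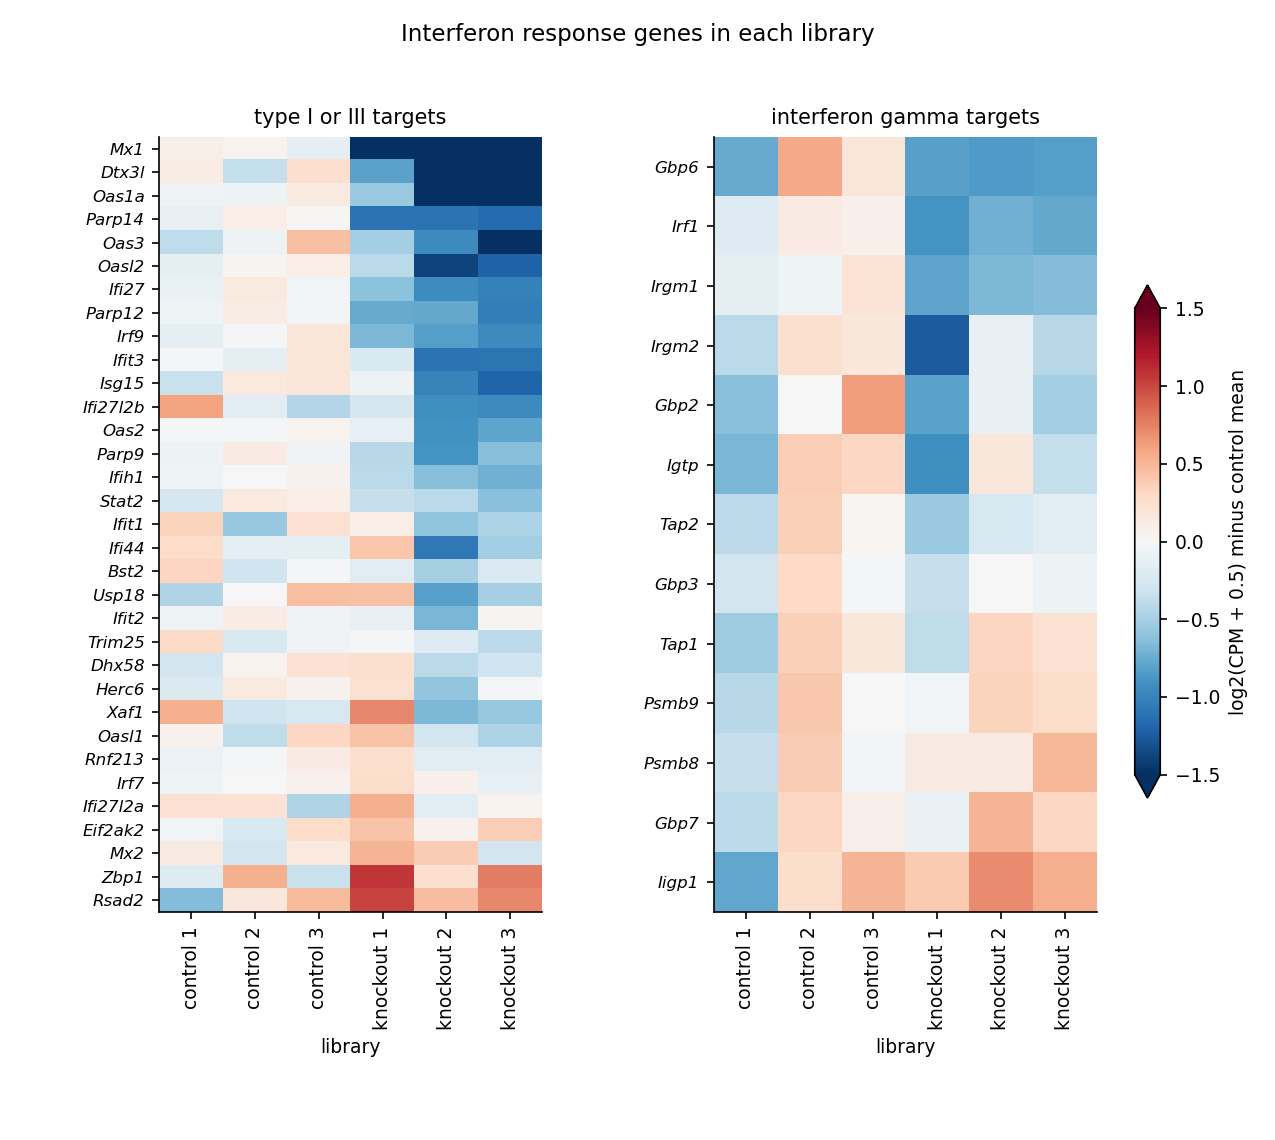
Colour map of each interferon response gene (rows) in each library (columns), as log2(CPM + 0.5) minus the control mean, with blue for lower and red for higher; the colour scale ends at ± 1.5. Most type I or III targets that are blue in knockouts 2 and 3 are paler in knockout 1, and interferon gamma targets are blue in control 1 and mostly blue in knockout 1.

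Markers of other cells differed between libraries too. Among lymphocyte lists, none of the 10 markers of B and plasma cells was called (edgeR; 0 at an unadjusted p under 0.05, and 0 with DESeq2 or limma voom), but knockout 1 was the lowest knockout for all 10, with a mean deviation of -1.76 against 0.24 and 0.23 in knockouts 2 and 3. Ms4a1, which encodes CD20 of B cells, was at 39.4, 30.3 and 38.1 CPM in controls and at 1.73, 29.9 and 35.3 CPM in knockouts. The summed level of the list was 1880.8 to 7778.7 CPM in controls and 3551.1 to 6463.1 CPM in knockouts, and no listed B or plasma cell marker was at 0. Of 18 T cell markers, Trdc alone was called, as higher (0.99 ± 0.27, adjusted p = 0.0371). The Trdc call was lost without any of 5 libraries (adjusted p up to 0.125), and limma voom called 0 of the 18. Their deviations were -0.39, 0.51 and -0.12 in controls and -0.32, 0.31 and 0.03 in knockouts. The summed T cell level was 278.3 to 540.1 CPM in controls and 299.4 to 497.5 CPM in knockouts, with no marker at 0. The part of these cells in the result was not tested.

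Some enterocyte markers fell, where 9.37% of all tested genes were lower and 9.33% were higher. Of 8 markers of the villus tip, 4 fell (Nt5e, Slc28a2, Creb3l3 and Klf4), with deviations of 0.64, -0.41 and -0.23 in controls and -0.74, -0.88 and -1.39 in knockouts. Their summed level was 1618.0 to 4232.9 CPM in controls and 1601.5 to 2132.2 CPM in knockouts. The sums thus overlapped, while the mean deviations did not. Apoa4, 1 of the 8 and also an ileal enterocyte marker, weighed heavily on the sums. It stood at 2225.6, 417.8 and 607.7 CPM in controls and at 730.0, 1398.1 and 1356.5 CPM in knockouts. None of the 4 calls held with every library left out in turn (adjusted p up to 0.17 for Nt5e, 0.154 for Slc28a2, 0.0703 for Creb3l3 and 0.0859 for Klf4). Of 12 markers of ileal enterocytes, 3 fell (Slc10a2, Fabp2 and Alpi), with a summed level of 27749.4 to 43441.9 CPM in controls and 24624.3 to 29062.9 CPM in knockouts, and the Fabp2 call was lost without knockout 3 or control 3 (adjusted p up to 0.0693). Of 13 stromal and endothelial markers, 3 rose (Col1a1, Col1a2 and Lyve1), with a summed level of 893.7 to 1840.7 CPM in controls and 995.2 to 1370.1 CPM in knockouts. Without knockout 3 the calls of Col1a1 (adjusted p = 0.0598) and Col1a2 (0.0595) were lost. None of 12 tested myeloid markers was called (edgeR; 0 at an unadjusted p under 0.05, and 0 with DESeq2 or limma voom). Of 6 tested markers of plasmacytoid dendritic cells, the main source of type I interferon, Irf8 alone was called, as higher, and Bst2 is also one of the 46 genes. The summed level was 142.7 to 155.3 CPM in controls and 193.4 to 205.4 CPM in knockouts with both of these genes. Over the other 4, a selection made after the values were seen, it was 50.5 to 54.8 CPM in controls and 43.2 to 56.4 CPM in knockouts, which overlapped. Siglech, which defines these cells, was at 0.303 to 0.530 CPM in controls and 0.111 to 0.760 CPM in knockouts. The part of these markers in the fall of interferon response genes was not tested.

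**Figure D4:**
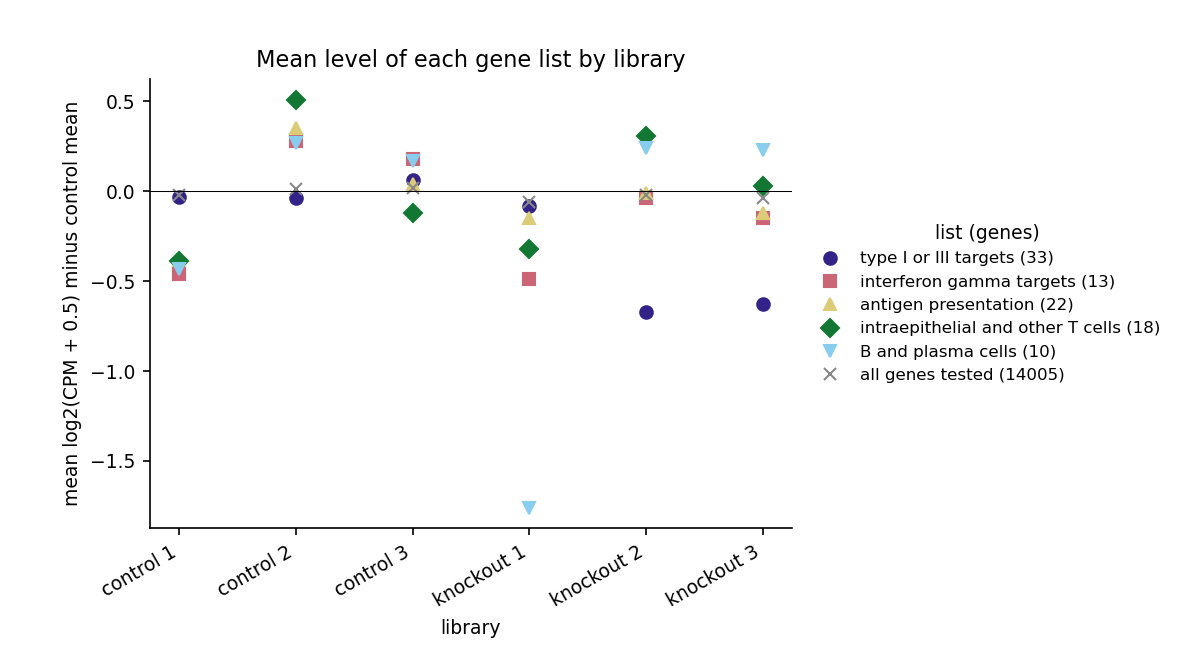
Mean of log2(CPM + 0.5) minus the control mean over the tested genes of each list (y axis), by library (x axis); each point is a list in a library. Type I or III targets are at -0.67 and -0.63 in knockouts 2 and 3 and at -0.08 in knockout 1, interferon gamma targets are at -0.46 in control 1 and -0.49 in knockout 1, and B and plasma cells are at -1.76 in knockout 1.

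The rest of the interferon pathway was read from lists of 121 genes that do not include the 46, of which 101 were tested. In these lists 15 genes fell and 2 rose, or 14.9% and 1.98%, against 9.37% and 9.33% of all tested genes. The median log2 fold change of the 101 was -0.19, compared with -0.05 over all tested genes. Of the 20 interferon genes listed, 18 had 0 counts in every library, which allows up to 0.159 to 0.207 CPM per library from counting error alone. Ifne had 2 counts, both in knockout 3. Ifng had 13 counts over the controls and 12 over the knockouts, at 0.00, 0.182 and 0.588 CPM and at 0.00, 0.50 and 0.159 CPM. No ligand had enough counts to be tested, and a difference in interferon transcripts was not detectable at this depth.

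None of the 6 receptor genes passed the test (edgeR; 2 lower at an unadjusted p under 0.05, and 1 lower with DESeq2 and with limma voom), and all 6 had negative log2 fold changes, although Ifnar1 and Ifngr1 were at 0.01 and 0.02 with libraries scaled by their totals alone. Ifngr2, the signalling chain for interferon gamma, was at 325.0, 329.0 and 329.2 CPM in controls and at 270.4, 263.0 and 254.8 CPM in knockouts, with separate groups (-0.32 ± 0.10, adjusted p = 0.0523). Ifngr1, the chain that binds interferon gamma and the most abundant receptor per length, was at -0.12 ± 0.10. For type I interferon, Ifnar2 was at 13.8 ± 1.25 CPM in controls and 10.5 ± 0.147 CPM in knockouts (-0.39 ± 0.14, adjusted p = 0.0917), and Ifnar1 was at -0.13 ± 0.09. For type III interferon, Ifnlr1 and Il10rb were each at -0.24 ± 0.15.

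Of 14 genes of receptor signalling and its inhibitors, 3 fell and 1 rose (21.4% and 7.14%, against 9.37% and 9.33% of all tested genes). Tyk2, the kinase of the type I and III receptors, fell (-0.61 ± 0.11, adjusted p = 0.0106), as did the transcription factors Irf3 (-0.57 ± 0.11, adjusted p = 0.0124) and Irf2 (-0.40 ± 0.09, adjusted p = 0.0234). Each lost its call without at least 1 library, Tyk2 without control 3 (adjusted p = 0.0532), Irf3 without knockout 3 (up to 0.0555) and Irf2 without any of 5 (up to 0.0998). Irf8, a factor known from myeloid and B cells, rose from 83.5, 95.1 and 91.4 CPM to 144.1, 142.4 and 143.1 CPM (0.67 ± 0.10, adjusted p = 0.00443), with nearly equal values in the knockouts. Jak2, the most abundant of the list per length, was at -0.35 ± 0.14 and missed the threshold (adjusted p = 0.117).

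Of 12 genes listed for nucleic acid sensing upstream of interferon and its control, 2 fell and 1 rose (16.7% and 8.33%, against 9.37% and 9.33% of all tested genes). Rigi, which encodes RIG-I, was at 50.3, 60.3 and 61.8 CPM in controls and at 39.6, 40.7 and 38.4 CPM in knockouts (-0.54 ± 0.11, adjusted p = 0.0144). Tlr3, the endosomal sensor of double-stranded RNA, also fell (-0.36 ± 0.10, adjusted p = 0.0412). Samhd1, an enzyme that depletes nucleotides, rose (0.40 ± 0.09, adjusted p = 0.0219). All 3 calls were lost without knockout 2, without knockout 3 or without control 3, with an adjusted p up to 0.0660, 0.146 and 0.0834.

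None of the 22 genes of antigen presentation outside the 46 was called (edgeR; 2 lower at an unadjusted p under 0.05, and 0 with DESeq2 or limma voom). B2m, the light chain of MHC class I and the most abundant, was at 1195.4, 2483.1 and 1942.2 CPM in controls and at 1590.4, 1737.4 and 1618.2 CPM in knockouts (-0.18 ± 0.25). Control 1 was again the lowest control, as in 17 of the 22.

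Of 47 other interferon-induced genes, 10 fell (21.3%, against 9.37% of all tested genes) and 0 rose (against 9.33%), with a median of -0.23. DESeq2 called 12 lower and 1 higher, and limma voom called 9 lower and 0 higher. All knockouts were below all controls for 15 of the 47, or 31.9%, against 20.2% of all tested genes. They were above for 3, or 6.38%, against 19.6%. The smallest adjusted p-values belonged to Trim34a (-1.29 ± 0.19, adjusted p = 0.0047), Ifit1bl2 (-1.20 ± 0.19, adjusted p = 0.006), Uba7 (-0.91 ± 0.15, adjusted p = 0.00716), Apol9b (-1.46 ± 0.26, adjusted p = 0.0107), Ifi47 (-0.79 ± 0.16, adjusted p = 0.0148) and Parp11 (-0.80 ± 0.17, adjusted p = 0.0153). Uba7 encodes the activating enzyme for ISG15, Ifi47 is an immunity-related GTPase, and Parp11 is another ADP-ribosyltransferase. Of these 6, Ifi47 lost its call without knockout 2 or control 2 (adjusted p up to 0.0595) and Parp11 without knockout 2, knockout 3, control 2 or control 3 (up to 0.0681). Uba7 stood at 51.1, 67.5 and 54.4 CPM in controls and at 32.0, 34.2 and 25.8 CPM in knockouts, so the groups were separate. Ifit1bl2 was the most abundant of the 6, at 232.1, 302.2 and 354.4 CPM in controls and 104.4, 133.4 and 148.6 CPM in knockouts, also with separate groups. The counts of Ifit1bl2, Trim34a and Apol9b were not whole in 2, 3 and 6 libraries. Nmi, the most abundant of the 47 per length, had the opposite sign, with 67.3, 107.4 and 82.4 CPM in controls and 118.1, 112.0 and 116.4 CPM in knockouts (0.43 ± 0.16, adjusted p = 0.102). Its groups did not overlap, and without control 2 Nmi was called higher (adjusted p = 0.0197).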

How the data were processed

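RNA-seq was done on 3 control and 3 Ogt knockout libraries of isolated ileal epithelial cells. Per the labels' protocols, Trizol was used for total RNA and the NEBNext Ultra kit, which leaves strand unmarked, for the libraries. The submitters' processing notes name GRCm39 and mm39. Neither aligner nor counter nor annotation is given in the sources used here. Per the file headers, the authors deposited 1 table with estimated counts and FPKM values for 22274 genes. The deposited estimated counts were not whole within 0.001 for 7.68% to 8.09% of genes per library, and they were rounded to whole numbers here.

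Genes were matched by Ensembl ID and named from GENCODE M21 (22219 IDs) or, failing that, from the deposited symbols (43 IDs), while 12 had no name. The deposited symbol differed for 6961 IDs, for example Gbp3 and Gbp7. Genes were filtered with filterByExpr of edgeR 4.0.16 (minimum count 10, minimum total 15), scaled with TMM factors and tested with the quasi-likelihood test with robust dispersion (R 4.3.3). Benjamini-Hochberg adjustment ran over 14005 genes, with a threshold of 0.05. SE was taken from the F statistic. The test was checked on simulated data. No 2 libraries agreed within sampling noise (mean chi-square per gene at least 19.5). The genes, classes and other lists were chosen with earlier results of these data known. Values in every library are given for genes past the threshold, the most abundant gene per class by FPKM and the 3 largest changes that missed it. Values are also given for some other genes (Stat2, Zbp1, Isg15, Rsad2, Ms4a1, Apoa4 and Siglech), which were chosen after their values were seen. Of each other pathway list, up to 6 genes past the threshold, the most abundant gene, the receptors and the ligands are named, and 1 gene is not reported here.

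Alternatives were other scalings, DESeq2 1.42.0, limma voom (limma 3.58.1), other count filters, a replicate block, each library left out, limma on log2(FPKM + 0.1) or log2(FPKM + 1), each with a minimum of 1 FPKM in 3 libraries, limma on log2(FPKM + 0.1) with no minimum, and a 2-fold threshold. Figures were drawn with matplotlib 3.10.9.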

Additional observations from a re-analysis of the deposited data

How the results depend on the processing

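Leaving out 1 library gave between 7 (without knockout 2 or 3) and 15 (without knockout 1) lower and between 0 and 1 (Zbp1, without control 2) higher of the 46 genes, between 5 and 13 lower and 0 and 1 higher type I or III targets, between 6 (without knockout 3) and 24 (without control 1) lower and 1 and 3 higher other pathway genes, and over all genes between 460 and 1372 lower and 549 and 1932 higher. All 12 genes that fell stayed lower with upper quartile factors, with DESeq2 size factors and with library size alone. Library size alone moved the all-gene median log2 fold change from -0.05 to 0.09, with 859 genes lower and 2045 higher, and 5 other pathway genes higher. Requiring a 2-fold change left 4 of the 46 genes lower (all 4 type I or III targets, 0 interferon gamma targets), 6 other pathway genes lower and 0 higher, and 446 genes lower and 270 higher. With limma on log2(FPKM + 0.1), 712 genes were lower, with log2(FPKM + 1) 726, and without an FPKM filter 621. In the first and second of these, Zbp1 was the 1 type I or III target called higher, with 8 other pathway genes lower and 5 higher in each, and without the filter 6 were lower. The cause of these shifts was not tested. Oas2, Mx2 and Ifi44 did not reach the FPKM minimum, so 43 of the 46 were tested there.

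The labels do not say whether the replicate numbers pair the libraries. Same-numbered libraries correlated at 0.274, 0.253 and 0.084 in their deviations, and each correlated best with its own number, a hint from the data. With the replicate number as a block, 1674 genes were lower and 1728 higher, 14 of the 46 genes were lower, Oasl2 was lost and Ifit3, Ifi27l2b and Irgm2 were added. Oasl2 was also lost without a count filter and without an FPKM filter.

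Log2 fold changes near 0 changed sign, in genes never called in such a fit. With libraries left out in turn, values ran from -0.02 to 0.17 for Irf7, -0.40 to 0.00 for Dhx58, -0.76 to 0.05 for Usp18, -0.29 to 0.10 for Herc6, -0.39 to 0.12 for Oasl1, -0.17 to 0.08 for Rnf213, -0.09 to 0.31 for Ifi27l2a, -0.94 to 0.00 for Ifi44, -0.72 to 0.29 for Xaf1, -0.24 to 0.05 for Gbp3, -0.13 to 0.26 for Tap1 and -0.38 to 0.11 for B2m. With library size alone, Herc6 was at 0.03, Oasl1 at 0.04, Rnf213 at 0.12, Xaf1 at 0.02, Ifnar1 at 0.01 and Ifngr1 at 0.02. Rnf213 was at 0.00 with DESeq2 and with its size factors. With limma on log2(FPKM + 0.1), with or without an FPKM filter, Herc6 was at 0.00, Oasl1 at 0.03, Rnf213 at 0.10, Xaf1 and Gbp3 at 0.05, B2m at 0.01 and Ifngr1 at 0.02, and with log2(FPKM + 1) the values were 0.01 for Herc6, 0.03 for Oasl1, 0.09 for Rnf213, 0.05 for Xaf1 and Gbp3, 0.01 for B2m and 0.02 for Ifngr1. Depth limits the genes with few counts: Mx1 had 38 counts over the knockouts, and the interferon ligands could not be tested.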
